A study of Arabidopsis thaliana with 18 samples.

Results

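ASPGB1 (AT3G16150) encodes the potassium-dependent asparaginase of Arabidopsis thaliana, and its transcript level is described here across roots and shoots of control, potassium-starved and caesium-treated plants. The gene was chosen by its annotation and with its signals on these arrays known, so its own levels and differences are given as a description, without a test. It was read by 1 probe set, the only member, out of 13350 genes that have a probe set annotated to a single gene. The 18 arrays fell into 6 groups of 3, and the series title names the comparison of potassium starvation with caesium treatment as the subject.

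Asparaginases split asparagine into aspartate and ammonium. Asparagine is a main form in which plants store and move nitrogen, and its breakdown returns the nitrogen to ammonium assimilation and the carbon skeleton to aspartate. Plants hold a potassium-dependent and a potassium-independent type of the enzyme, which in Arabidopsis are encoded by ASPGB1 and ASPGA1. Potassium is the main cation of the plant cell and activates many enzymes. Caesium is a related alkali cation that can enter plants through potassium transport systems.

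All plants were of the accession Ws-2 (stock N1601) and were taken at developmental stage 3.90, after growth with a 16 h day at 22 °C and 80% humidity, on agar at 0.8% with diluted Murashige and Skoog salts and 1% sucrose. Control, potassium-starved and caesium-treated plants differed only in treatment as far as the labels go, and each gave a shoot and a root group. The caesium dose, the duration of treatment, how potassium was withheld and the age in days were not given in the labels. The labels do not say that replicates came from separate cultures. The p-values therefore reflect the spread among these arrays alone, and it may be technical. Whole roots and whole shoots were measured, so fewer cells of a type and less RNA per cell cannot be told apart. Replicate 2 of the potassium-starved shoots stood apart, with a median signal of 33.0 over all probe sets against 38.9 to 45.4 on the other 17 arrays, and the shoot values of ASPGB1 are given with and without it.

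In roots, ASPGB1 was highest under potassium starvation. Its signal intensity, on the linear scale of the deposited table, was 179.9, 129 and 229 in control roots, which is 179.1 ± 49.9 (SD, n = 3). In potassium-starved roots it was 478, 705 and 724, or 636 ± 137 (n = 3). The lowest potassium-starved array was above the highest control array, and the groups did not overlap. The log2 difference was 1.84 ± 0.23 (standard error, from the fit of the 9 root arrays), a 3.58-fold higher signal. Of the 14432 probe sets tested in roots, 23 had a larger difference in this direction. An absence of overlap with the higher signals in potassium-starved roots was found for 10.3% of those probe sets.

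**Figure D1:**
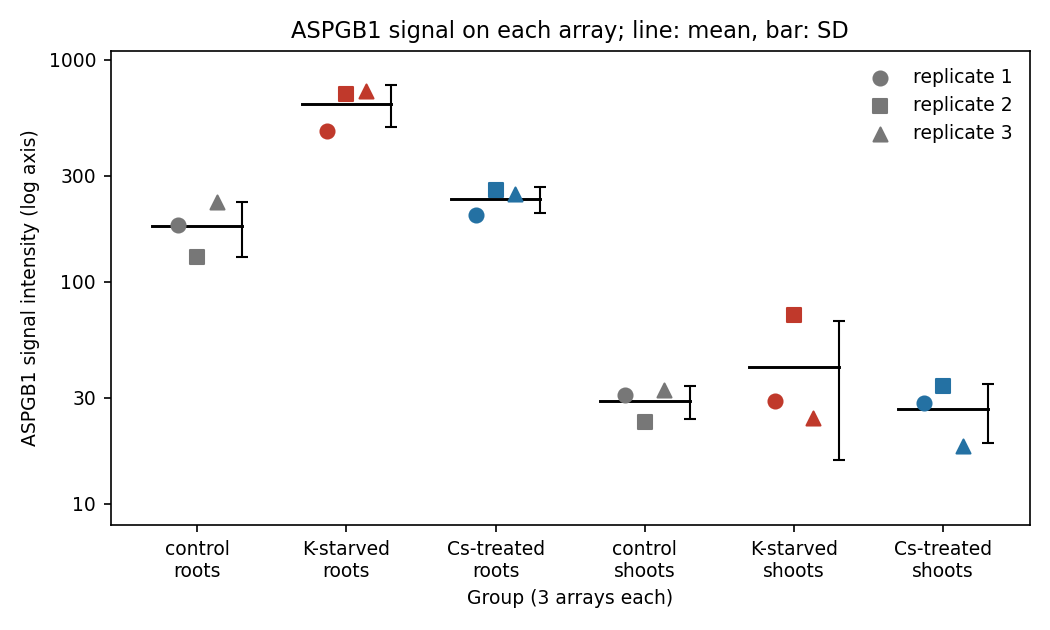
Signal intensity of ASPGB1 on a log axis for every array of the 6 groups, with the group mean as a line, the SD (n = 3) as a bar and the replicate number as the symbol. The 3 potassium-starved root arrays lie above all others, from 478 to 724, and every shoot array lies below every root array.

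Caesium-treated roots lay closer to the controls than to the potassium-starved roots. Their signals were 199.8, 258 and 248, or 235 ± 31.2 (n = 3), and they overlapped the control range, because the lowest caesium array was below the highest control array. The log2 difference from control was 0.42 ± 0.23, or 1.34-fold, and 1163 of 14432 probe sets had a larger one. With the replicate number fitted as a block the difference was 0.42 ± 0.20. Against potassium-starved roots, caesium-treated roots were 2.67-fold lower, a log2 difference of -1.42 ± 0.23 with no overlap. An absence of overlap with lower signals under caesium was found for 13.8% of the probe sets tested in roots, and 86 probe sets had a more negative difference. Both treatments were compared with the same 3 control arrays, so their differences from control are not independent of each other.

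In shoots, ASPGB1 gave a weak signal in every group. Control shoots had 31.0, 23.3 and 32.6, or 29.0 ± 4.96 (n = 3). Potassium-starved shoots had 29.1, 70.7 and 24.2, or 41.3 ± 25.5 (n = 3), and caesium-treated shoots had 28.4, 33.8 and 18.2, or 26.8 ± 7.92 (n = 3). In each shoot group 1 of the 3 arrays gave a signal below the 40th percentile of its own array, the level used as the filter for low signals. Replicate 2 of the potassium-starved shoots stood apart from the other 8 shoot arrays, which reached at most 33.8.

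The shoot differences were small against their errors. The log2 difference of potassium-starved from control shoots was 0.36 ± 0.40, with overlapping arrays, and that of caesium-treated from control shoots was -0.14 ± 0.40, also with overlap. Without potassium-starved shoot replicate 2 the first of these turned to -0.11, and without caesium-treated shoot replicate 3 the second turned to 0.11, so neither has a direction that held without 1 array. Caesium-treated against potassium-starved shoots gave -0.50 ± 0.40 and overlapped, and came to -0.03 without that potassium-starved array. The residual SD of ASPGB1 on the log2 scale was 0.57 in shoots, above that of 89.2% of the probe sets tested there, and 0.33 in roots, above that of 72.8%.

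Control roots had 6.08 times the signal of control shoots, a log2 difference of 2.60 ± 0.34 with no overlap. Among the 16397 probe sets tested over all 18 arrays, 35.8% were higher in control roots without overlap, and 1106 had a larger difference. The root difference under potassium starvation exceeded the shoot difference by 1.48 ± 0.48 on the log2 scale, and that under caesium by 0.57 ± 0.48. With replicate 2 of all 3 shoot groups left out, a choice made after seeing the data, the first of these came to 2.1.

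By mean log2 signal the groups ran from potassium-starved roots through caesium-treated roots, control roots, potassium-starved shoots and control shoots to caesium-treated shoots. Potassium-starved and caesium-treated roots did not overlap, and neither did control roots and potassium-starved shoots. The neighbours caesium-treated and control roots overlapped, as did the neighbouring groups among the shoots. Taken by replicate number, the potassium-starved to control ratio in roots was 2.66, 5.47 and 3.17, and the caesium to control ratio was 1.11, 2.00 and 1.08. The numbers were not taken to pair potassium-starved with control roots, so the first 3 ratios depend on an order that may be arbitrary. In shoots the ratios to control were 0.938, 3.03 and 0.744 under potassium starvation and 0.916, 1.45 and 0.558 under caesium. The highest ratio of each set fell on replicate 2, the number with the lowest control signal in both tissues.

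**Figure D2:**
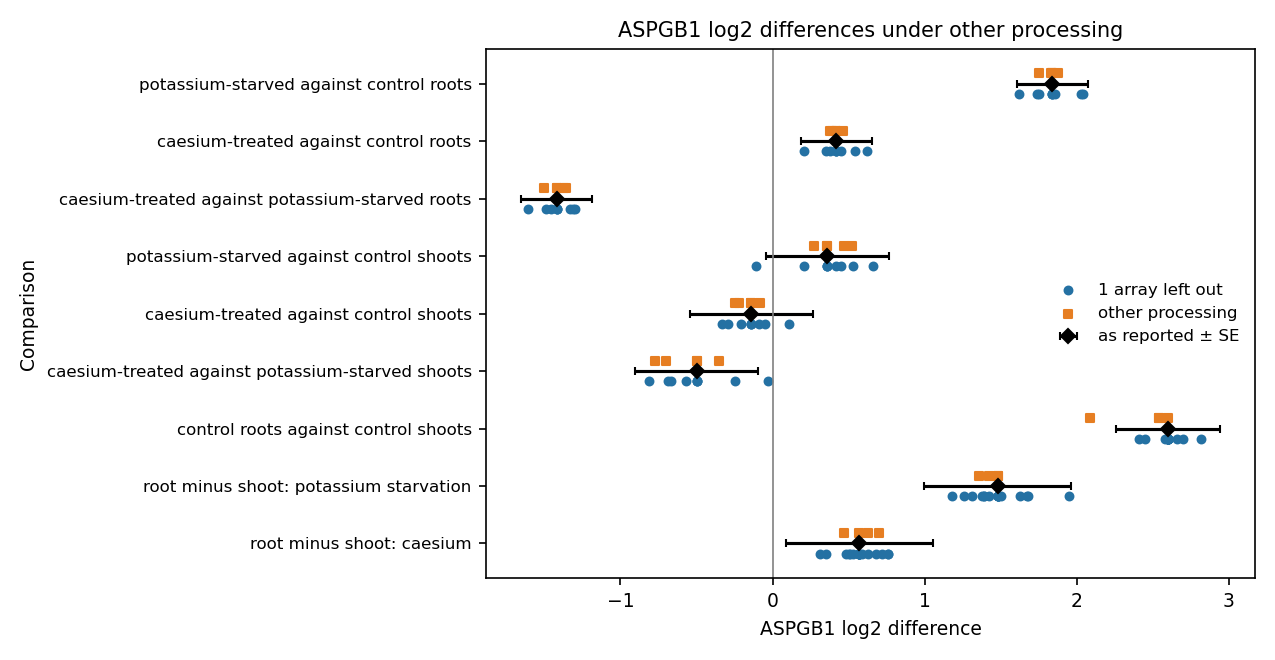
Log2 differences of ASPGB1 for 9 comparisons as reported (diamond, with its standard error), with 1 array left out in turn (circles) and under other processing (squares). The root differences involving potassium starvation keep their side of 0 throughout, from 1.62 to 2.04 against control with 1 array left out, and those of either treatment against control shoots cross 0.

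Markers of the other organ were checked because shoot arrays could hold root RNA. Of 13 root markers 4 had a usable probe set, and none was listed at 0. These were PYK10, a beta-glucosidase of roots, the root hair expansins EXPA7 and EXPA18, and the peroxidase PRX57. Their summed signal ran from 2903 to 4497 on root arrays. On shoot arrays it was 204, 1254 and 330.0 in controls, 79.8, 942 and 570.0 under potassium starvation and 167, 999 and 465 under caesium, so replicate 2 was highest in every shoot group. Nearly all of it was PYK10, at 1200.0, 903 and 948 on the 3 replicate 2 arrays. The other root markers did not all follow PYK10. On control replicate 2, EXPA18 was the highest of its group at 30.1 and PRX57 the lowest at 1.315, and EXPA7 had 23.1 against 14.0 and 24.45. On caesium-treated replicate 2, EXPA7, EXPA18 and PRX57 had 21.4, 26.8 and 2.37, each the highest of its group. EXPA7 and PRX57 were below the 40th percentile on every shoot array.

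The high ASPGB1 signal of 70.7 thus fell on an array with high PYK10, and the other arrays with high PYK10 had ASPGB1 signals of 33.8, the highest of the caesium-treated shoots, and 23.3, the lowest of the control shoots. The array with the highest PYK10 of its group was the highest for ASPGB1 in 2 of the 3 shoot groups and the lowest in the control group. No share over all probe sets was counted for this, so nothing is drawn from it. On the potassium-starved shoot array of replicate 2, EXPA7 had 14.7 and EXPA18 had 19.6, within the range of the other shoot arrays. PRX57 had 5.05 there, against 1.13 and 1.51 on the other potassium-starved shoot arrays and 688 to 867 on the potassium-starved root arrays. The part of root RNA in the ASPGB1 signal of 70.7 was not tested. On root arrays, the summed signal of the 5 of 18 photosynthesis markers with a probe set was 135 to 258 in controls, 177 to 308 under potassium starvation and 299 to 451 under caesium. In shoots it was 12620 to 14480 in controls, 8013 to 10280 under potassium starvation, lowest on replicate 2, and 9490 to 12670 under caesium. The potassium-starved shoots did not overlap the controls in this sum, as 25.7% of single probe sets tested in shoots did in that direction. Of its genes LHCB4.1, LHCB4.2 and PRK were called lower there by limma, as were 16.7% of all probe sets. RCA and PSAN were not (adjusted p = 0.141 and 0.0821, limma). In roots the caesium sum lay above the control sum without overlap, as 7.55% of single probe sets did, and none of the markers tested was called. The ratio of the 3 prime to the 5 prime probe set of actin, a sign of RNA quality, was 1.27 to 2.17 in control roots, 1.24 to 1.61 in potassium-starved roots and 1.42 to 2.12 in caesium-treated roots. The older actin probe sets on the array gave 5.41 to 7.19, 3.95 to 5.61 and 5.44 to 8.15 in the same groups. In shoots the ratios ran from 1.27 to 2.02 and, by the older sets, from 3.26 to 6.11, and potassium-starved replicate 2 had 1.65 and 5.52.

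**Figure D3:**
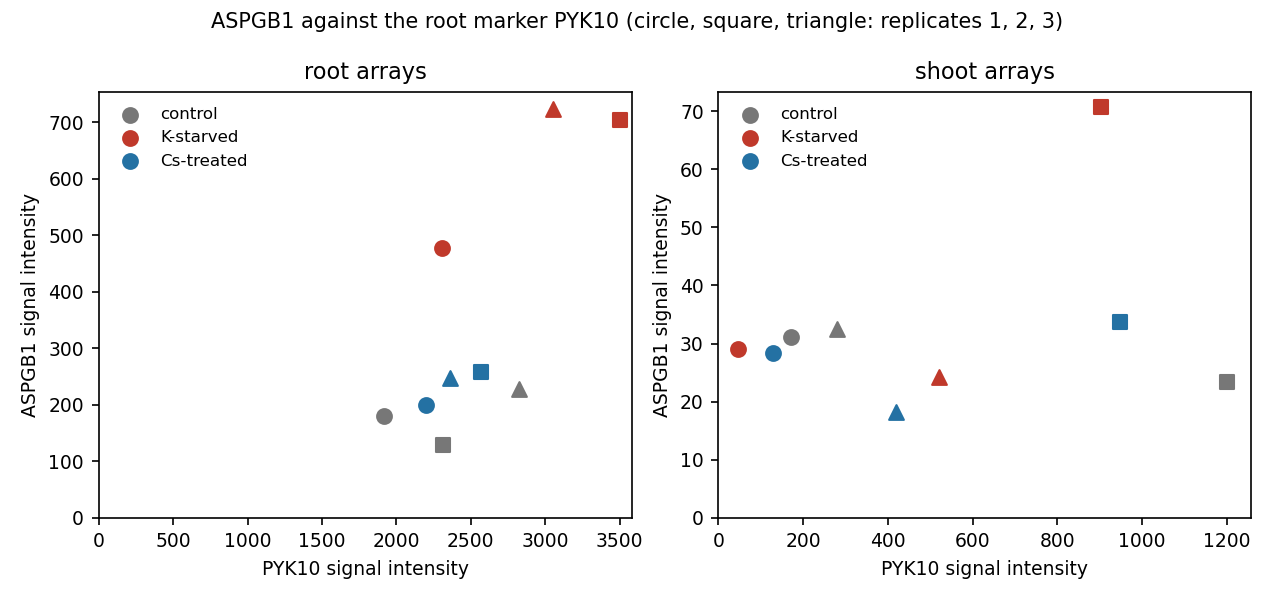
ASPGB1 signal against the signal of the root marker PYK10 on root arrays (left) and shoot arrays (right), with colour for the treatment and the symbol for the replicate number. In shoots the 3 replicate 2 arrays have PYK10 signals from 903 to 1200.0 but ASPGB1 signals of 23.3, 33.8 and 70.7.

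The other genes of asparagine and nitrogen metabolism were drawn from lists of 121 members besides ASPGB1, of which 15 had a probe set annotated to 1 gene. In each tissue 13 of these passed the filter on low signals. In potassium-starved roots 1 of the 13 rose and 0 fell (limma, adjusted p under 0.05), where 0.714% of all tested probe sets rose and 0.381% fell. Their median log2 difference was -0.03, the same as the median of all tested probe sets. In potassium-starved shoots 2 rose and 2 fell, where 11.4% of all tested probe sets rose and 16.7% fell, and the median was -0.05 against -0.14. Under caesium 0 of 13 were called by limma in roots, with 2 at an unadjusted p under 0.05, and 0 of 13 in shoots, again with 2. The background was 0% called in caesium-treated roots (9.69% at the unadjusted p) and 0.566% in caesium-treated shoots (14.2% at the unadjusted p). Replicate numbers were not part of this fit. With them as a block, 1 pathway gene was called under caesium in shoots (AT4G33150, described below) and 0 in roots. More of all probe sets were then called under caesium in both tissues too, as counted in the closing section.

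Among the genes that act on asparagine directly, ASPGA1, the potassium-independent asparaginase, gave 193, 207 and 182 in control roots and 142, 177 and 163 in potassium-starved roots. These arrays did not overlap, with the lower signals under potassium starvation, as was so for 12% of the probe sets tested. The log2 difference was -0.28 ± 0.14 with an adjusted p = 0.337 (limma), so no change was called. In caesium-treated roots ASPGA1 had 188, 172 and 174, a log2 difference of -0.12 ± 0.14 (adjusted p = 0.833, limma). In shoots its log2 differences were -0.01 ± 0.22 under potassium starvation and -0.01 ± 0.22 under caesium, with adjusted p = 0.982 and 0.993 (limma). The ASPGA1 signals of control roots and control shoots overlapped, at 194 ± 12.6 and 167 ± 21.4 (n = 3 each), with a log2 difference of 0.22 ± 0.18 (adjusted p = 0.315, limma).

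AT4G00590, the second tested locus on the list of asparagine synthesis and hydrolysis, was called in none of the 9 comparisons. Its place there is by the list alone, and what its product acts on was not examined. Its log2 difference in potassium-starved roots was 0.46 ± 0.22 (adjusted p = 0.291, limma). The asparagine synthetases ASN1, ASN2 and ASN3, which make asparagine, had no probe set annotated to 1 gene and are not analysed here. The same held for all listed members of the aspartate aminotransferases, of ammonium assimilation and of the amino acid carriers. NRT2.5, a nitrate transporter, was the only member of its group with a probe set, and its signals, from 11.7 to 37.5, failed the filter in both tissues.

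MGL, the methionine gamma-lyase that breaks down methionine, was the pathway gene that rose in potassium-starved roots. Its signals were 198, 113 and 122 in control roots and 433, 327 and 280.4 in potassium-starved roots, with no overlap. The log2 difference was 1.28 ± 0.24 (adjusted p = 0.0317, limma). In caesium-treated roots MGL had 123, 168 and 148, and it was lower there than under potassium starvation by a log2 difference of -1.23 ± 0.24 (adjusted p = 0.0216, limma). This call was lost without potassium-starved replicate 2 or caesium-treated replicate 1 or 3, with adjusted p up to 0.0894. In shoots the potassium-starved signals were 117, 146 and 189 against 52.7, 112 and 109 in controls, a log2 difference of 0.78 ± 0.35 that was not called (adjusted p = 0.117, limma) unless replicate numbers were fitted as a block (adjusted p = 0.00748). The rise in roots lost its call when control replicate 2 or 3, any potassium-starved array or caesium-treated replicate 3 was left out, with adjusted p up to 0.109.

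AT4G33150 encodes the bifunctional lysine-ketoglutarate reductase and saccharopine dehydrogenase, named so by RefSeq, which starts lysine breakdown. In shoots it had 65.2, 50.1 and 59.4 in controls and 84.9, 109 and 79.2 under potassium starvation, without overlap. Such a separation was found for 17% of the probe sets tested there with the higher signals under potassium starvation, and for 25.7% with the lower. The rise of AT4G33150, by 0.64 ± 0.21 on the log2 scale, had an adjusted p = 0.0466 (limma), and the call held without potassium-starved replicate 3 or caesium-treated replicate 1 and was lost without any of the other 7 shoot arrays. Caesium-treated shoots gave 97.5, 132 and 148, also above all controls, as was so for 14.6% of the probe sets. Their 2.14-fold difference from control was not called (adjusted p = 0.0529, limma), but it was with replicate numbers as a block (adjusted p = 0.0243). In roots its signals overlapped between treatments, and control roots were higher than control shoots by 2.23 ± 0.22 (adjusted p = 2.41e-07, limma).

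AT5G10920, listed among the genes of amino acids made from aspartate, fell in potassium-starved shoots. It had 169.8, 167 and 209 in control shoots and 84.6, 34.2 and 67.7 under potassium starvation, a log2 difference of -1.64 ± 0.30 (adjusted p = 0.00362, limma). The call held with each of the 9 shoot arrays left out. Caesium-treated shoots, at 233, 186 and 184, were higher than potassium-starved ones by 1.78 ± 0.30 (adjusted p = 0.00371, limma). In roots it had 127, 82.0 and 94.5 in controls, 79.2, 40.8 and 48.7 under potassium starvation and 139, 116 and 121 under caesium. The fall against control roots was -0.88 ± 0.25 and was not called (adjusted p = 0.108, limma), and the log2 difference of caesium from potassium-starved roots was 1.21 ± 0.25 (adjusted p = 0.0262, limma). That call was lost without potassium-starved replicate 2 or 3 or caesium-treated replicate 1 or 3, with adjusted p up to 0.101. AT1G14810 and AT4G24830 of the same list were called in none of the comparisons.

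Of the genes that supply oxaloacetate and malate, MDH, the plastidic NAD-dependent malate dehydrogenase, had 619, 579 and 539 in control roots, 486, 531 and 558 under potassium starvation and 778, 729 and 754 under caesium. Its log2 difference of caesium-treated from control roots was 0.38 ± 0.13 (adjusted p = 0.354, limma) with no overlap, as 7.55% of the probe sets showed in this direction. Against potassium-starved roots it was 0.52 ± 0.13 (adjusted p = 0.0433, limma), a call that was lost with any 1 of the 9 root arrays left out. AT5G58330, the NADP-dependent malate dehydrogenase of chloroplasts, had 689, 756 and 911 in control shoots and 13.3, 2.76 and 9.20 in control roots. All 3 of these root signals failed the 40th percentile of their arrays, and the log2 difference of -6.81 ± 0.48 (adjusted p = 2.33e-09, limma) rests on weak root signals. In shoots neither treatment moved it past the threshold.

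AT4G33760, on the list of asparagine and aspartate tRNA ligases, fell in potassium-starved shoots, from 66.9, 55.6 and 58.1 in controls to 42.8, 28.2 and 34.8. The log2 difference was -0.79 ± 0.22 (adjusted p = 0.0241, limma), and the call was lost without control replicate 1 or 3 or potassium-starved replicate 2, with adjusted p up to 0.082. Caesium-treated shoots, at 86.6, 58.1 and 67.6, were higher than potassium-starved ones by 1.01 ± 0.22 (adjusted p = 0.0104, limma). AT4G26870 of the same list was not called in potassium-starved shoots at -0.67 ± 0.28 (adjusted p = 0.0989, limma), and it was with the block (adjusted p = 0.0481). Its log2 difference of caesium-treated from potassium-starved shoots, 0.82 ± 0.28, likewise had an adjusted p = 0.0553 and 0.0234 with the block (limma).

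AT5G38710, on the list of arginine, proline, urea and GABA breakdown, rose in potassium-starved shoots from 31.6, 36.1 and 13.5 to 95.6, 48.4 and 46.7. The log2 difference was 1.27 ± 0.39 (adjusted p = 0.0356, limma), and the call was lost without control replicate 1 or 3, potassium-starved replicate 1 or 2 or caesium-treated replicate 3, with adjusted p up to 0.113. Caesium-treated shoots, at 43.2, 60.4 and 61.1, also lay above all controls, as was so for 14.6% of the probe sets. Their log2 difference from control, 1.125 ± 0.39, was not called (adjusted p = 0.211, limma), and they overlapped the potassium-starved shoots. URE, the urease that frees ammonium from urea, had 35.2, 42.5 and 27.4 in control roots, 18.4, 18.6 and 25.9 under potassium starvation and 47.4, 42.9 and 40.7 under caesium. All 3 potassium-starved signals were below the 40th percentile of their arrays. The log2 difference of caesium-treated from potassium-starved roots was 1.07 ± 0.23 (adjusted p = 0.0302, limma), lost without any 1 of the 6 arrays of these groups. DELTA-OAT, the ornithine aminotransferase, was not called, at 0.45 ± 0.16 in potassium-starved roots (adjusted p = 0.189, limma).

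**Figure D4:**
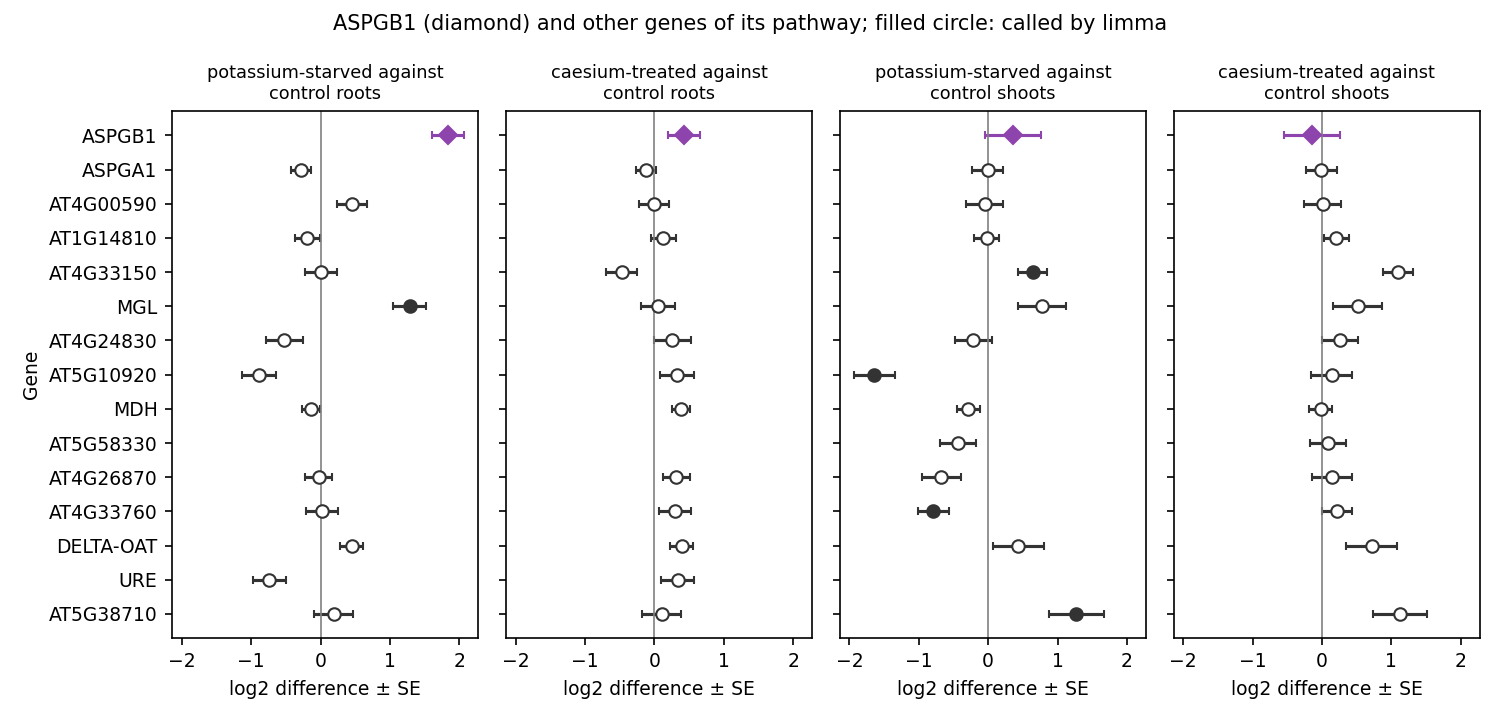
Log2 differences from control, with standard errors from limma, for ASPGB1 (diamond, not tested) and the other pathway genes (circles, filled where called) in both tissues under both treatments. In potassium-starved roots ASPGB1, at 1.84, and MGL, at 1.28, lie farthest to the right, and under caesium no circle is filled.

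Across the remaining comparisons of these genes, caesium-treated against potassium-starved roots gave 3 higher and 1 lower of 13, against 2.27% of all tested probe sets called higher and 2.27% lower. The same comparison in shoots gave 2 higher and 0 lower, against 18% and 8.84%. Control roots against control shoots gave 2 higher (AT4G33150 and URE) and 3 lower (AT5G10920, AT5G58330 and AT4G33760) of 14, against 30.6% and 22.5%. The call of AT5G10920 was lost without control root replicate 2 or 3 or control shoot replicate 3, and that of URE without control root replicate 1 or 2 or control shoot replicate 3. All 3 control shoot signals of URE, at 23.9, 24.6 and 13.6, were below the 40th percentile of their arrays. Of the 3 control root signals of AT4G33760 only 1 was above it. These 2 calls thus rest on weak signals in 1 tissue. No root-minus-shoot difference in response was called by limma in any of the 14, with 2 at an unadjusted p under 0.05 for potassium starvation and 3 for caesium. The background for these was 8.37% called and 25.2% at the unadjusted p for potassium starvation, and 0.14% and 9.32% for caesium. In a wider search of RefSeq names for words of asparagine, aspartate, ammonium, nitrate and amino acid metabolism, 101 genes were found, and 3 others than ASPGB1 had a usable probe set (ASPGA1, AARE and NRT2.5). None of them was called against control by limma. AARE was higher in caesium-treated than in potassium-starved shoots by a log2 difference of 0.905 ± 0.24 (adjusted p = 0.0223, limma). That call was lost without potassium-starved replicate 1 or caesium-treated replicate 1 or 2 (adjusted p up to 0.0898, limma), and with quantile normalization or a common median (adjusted p = 0.0872 and 0.0836).

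The genes whose pattern was most like that of ASPGB1 were ranked by the Pearson correlation of log2 signals over the 18 arrays, among 8909 genes. The root to shoot difference, which all these points share, enters every value, and 299 genes had r above 0.9. The median over all genes was 0.172. The highest was AT4G22610, with r = 0.985, followed by GAT1_2.1, a glutamine amidotransferase by its RefSeq name, with 0.972, and PUB22, a U-box protein, with 0.965. The next were AT2G42060 (0.963), AT5G48430 (0.962), IVD (0.959), the isovaleryl-CoA dehydrogenase of leucine breakdown, AT5G39580 (0.958), AT3G03670 (0.957), AT1G74770 (0.957) and AT1G35190 (0.956).

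AT4G22610 had 372, 187 and 299 in control roots, 887, 1136 and 726 in potassium-starved roots and 359, 444 and 390.1 in caesium-treated roots. In shoots it had 17.1, 63.5 and 26.1 under potassium starvation and 19.2 to 31.9 in the other groups, so its highest shoot signal was on the same array as that of ASPGB1. GAT1_2.1 had 134, 130.4 and 253 in control roots, 537, 495 and 379 in potassium-starved roots and 115, 172 and 117 in caesium-treated roots. Its potassium-starved shoot signals were 6.22, 40.02 and 4.01, again highest on replicate 2. The 10 genes were picked for their likeness to ASPGB1 over these same arrays, so the counts that follow only describe the choice. Of the 10, 7 had their highest shoot signal on that array, 4 of which failed the filter on low signals in shoots, where 15.2% of all tested probe sets were highest on it. In 8 of the 10, all 3 potassium-starved root arrays lay above the other 6 root arrays, as in 6.11% of the probe sets tested in roots, and AT2G42060 and AT5G39580 overlapped. The 10 differed under caesium, where the root mean was below control in 7 and above it in 3, as in ASPGB1. IVD had 132, 121 and 147 in control roots and 260.4, 207 and 248 in potassium-starved roots, and its shoot signals of 39.0 to 78.2 lay closer to its root signals than those of ASPGB1 did.

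**Figure D5:**
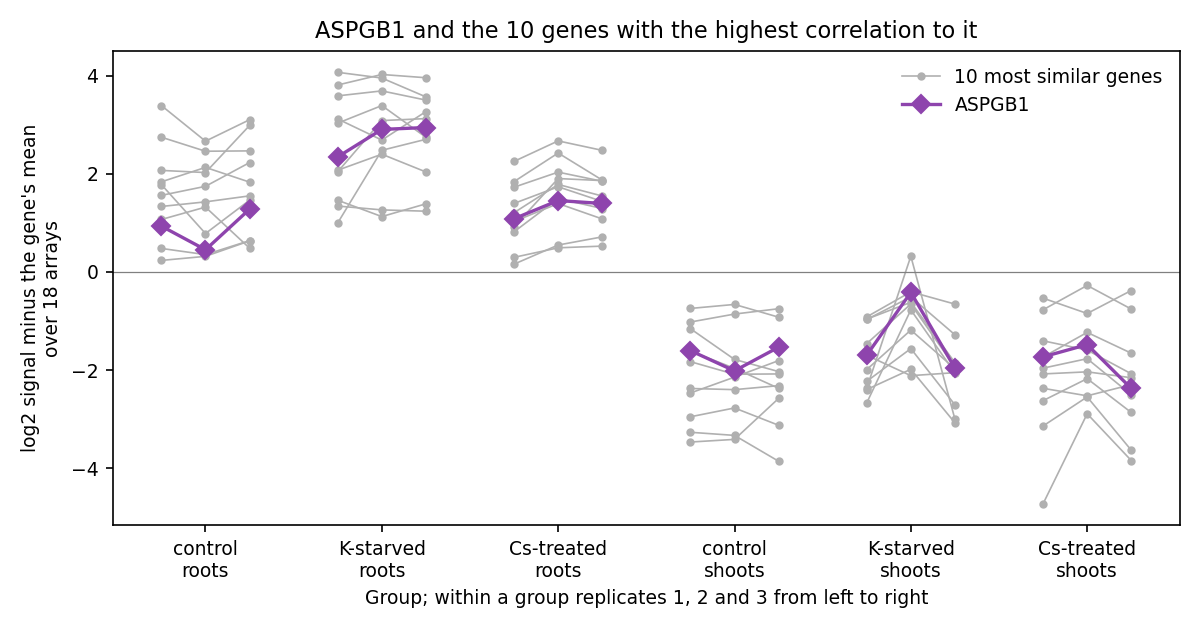
Log2 signal minus each gene's own mean over the 18 arrays, for ASPGB1 (diamonds) and the 10 genes with the highest correlation to it (grey), whose lines join replicates 1, 2 and 3 within a group. All 11, chosen for their likeness over these arrays, lie above their mean in roots.

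Within roots alone, over 9 arrays and 7800 genes, the highest correlations were of AT2G21185 (0.966), AT4G33666 (0.965), AT3G07870 (0.958), AT5G58020 (0.958) and AT3G56360 (0.953). Only 48 of the 7800 exceeded 0.9. AT4G33666 had 80.0, 88.7 and 121 in control roots, 289.8, 334 and 323 in potassium-starved roots and 127, 157 and 158 in caesium-treated roots. Its shoot signals went the other way, from 482 ± 51.8 in controls to 317 ± 74.2 under potassium starvation (n = 3 each). Within shoots the highest were MTP11 (0.875), a metal tolerance transporter, AT5G37480 (0.855), ATCES1 (0.842), AT4G22610 (0.837) and AT3G21610 (0.832), and 0 of 7896 exceeded 0.9. Each of these shoot genes had its highest shoot signal on potassium-starved replicate 2, the array of the highest ASPGB1 shoot signal. Of all probe sets tested in shoots, 15.2% were highest on it. The shoot ranking thus leans on that 1 array. AT4G22610 was on both the 18-array and the shoot list, and none of the 5 root genes was on either.

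ASPGB1 was also set beside its neighbours on the chromosome, in the gene order of RefSeq assembly TAIR10.1. The nearest 2 genes on each side with a usable probe set were AT3G16080, 8 genes away, and AT3G16120, 3 away, on the 1 side, and AT3G16160, the adjacent gene, and AT3G16175, 3 away, on the other. AT3G16080 had 1067, 944 and 933 in control roots and 678, 931 and 782 in potassium-starved roots, a log2 difference of -0.31 ± 0.21 (adjusted p = 0.462, limma), and it was called in none of the comparisons. The adjacent AT3G16160 gave signals from 1.63 to 8.23 on the 18 arrays and, like AT3G16120 and AT3G16175, failed the filter on low signals.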

How the data were processed

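Transcript levels were measured on 18 Affymetrix ATH1 arrays, and sample titles gave the groups and replicate numbers. The authors deposited a linear signal intensity per probe set, which per the submitters' processing notes came from MAS5, of unstated version and settings. No value was at or below 0. Each array's trimmed mean was 100, so a shift in many bright genes moves the other genes of an array the opposite way. MAS5 signals are noisy when low. Array number limits the precision, and no array's values duplicated another's.

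Of 22810 probe sets, 64 controls were left out. The platform annotation named 1 gene for 13513, several for 503 and none for 8730 of the other 22746, and only the first were named, with RefSeq names (TAIR10.1). The log2 of each signal was used without a pseudocount. Testing required at least 3 arrays of a fit with a signal above the 40th percentile of that array. limma 3.58.1 in R 4.3.3 (lmFit, eBayes with trend) fitted the 9 arrays of each tissue, or all 18 for comparisons between tissues. Tests were two-sided, with Benjamini-Hochberg adjustment over all tested probe sets and calls at an adjusted p under 0.05. The fit was tested on simulated data. No set test was run.

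The member and the lists were chosen with earlier results of these data known. Every called list gene is named, up to 4 per list and direction by smallest p, with ASPGA1 and the asparagine synthetases named whatever their values. Of several probe sets of a gene, the brightest on average was used. The 10 most similar genes over 18 arrays, 5 per tissue and 2 neighbours per side were named. The annotation supplied here held no gene titles, so the planned search of titles used RefSeq symbols and synonyms instead. Alternatives were a pseudocount of 16, no filter, quantile normalization, a common median, the replicate number as a block, all 18 arrays in 1 fit and leaving out each array. Same-numbered arrays deviated together in shoots (r of deviations from group means 0.203 to 0.639) and between control and caesium-treated roots (0.146 to 0.439), so the numbers were taken to pair those samples by this check of the data. In the other root comparisons r ran from -0.0506 to 0.506, and between tissues from -0.0205 to 0.3. Their lowest values were below those of the pairs above, so the numbers were not taken to pair these samples. That line was drawn from r alone, and a weaker pairing there was not tested.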

Additional observations from a re-analysis of the deposited data

How the results depend on the processing

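With 1 array left out in turn, the ASPGB1 log2 difference ran from 1.62 to 2.04 in potassium-starved and from 0.21 to 0.62 in caesium-treated against control roots, from -1.61 to -1.30 between the treated roots, from -0.11 to 0.66, from -0.33 to 0.11 and from -0.81 to -0.03 in the same comparisons of shoots, from 2.41 to 2.82 between control tissues, and from 1.18 to 1.95 and 0.31 to 0.76 for the root minus shoot responses. The sign turned in potassium-starved shoots without their replicate 2 (-0.11), and without replicate 2 of all 3 shoot groups (-0.26), and in caesium-treated shoots without their replicate 3 (0.11). A pseudocount of 16 gave 2.09 between tissues, as it compresses low signals, and leaving out replicate 2 of all 3 shoot groups gave 2.1 for the potassium response between tissues.

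Pathway calls in potassium-starved roots numbered 1, and 0 with no filter, 2 with the block, 0 with 18 arrays in 1 fit and 0 to 1 with 1 array left out. In potassium-starved shoots they numbered 4, and 2 with no filter, 1 without replicate 2 of all 3 shoot groups and 1 to 4 with 1 array left out. In caesium-treated shoots they numbered 0, and 1 (AT4G33150) with the pseudocount, the block or 1 fit and 0 to 1 with 1 array left out. Between treated shoots they numbered 2, and 4 in 1 fit and 2 to 3 with 1 array left out. The ranges were 0 to 0 in caesium-treated roots, 0 to 3 between treated roots (4 as reported), 3 to 7 between tissues (5 as reported) and 0 to 1 in each root minus shoot response (0 as reported). The causes were not tested.

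Over all probe sets, 158 calls in potassium-starved roots became 105 with no filter, 735 with the block, 76 in 1 fit and 28 to 218 with 1 array left out. The 0 in caesium-treated roots became 1 with the pseudocount, 42 with the block, 27 in 1 fit and 0 to 7. The 655 between treated roots became 1574 with the block and 126 to 702. The 83 in caesium-treated shoots became 159 with the pseudocount, 34 with no filter, 20 with a common median, 681 with the block, 480 in 1 fit and 0 to 159, and 1 without replicate 2 of all 3 shoot groups. That choice also took 4116 in potassium-starved shoots to 2651 and 3935 between treated shoots to 1640, and leaving out 1 array took them to 2358 to 3930 and 1894 to 3869. The root minus shoot responses ran from 862 to 1894 for potassium (1373) and from 0 to 59 for caesium (23, with 35 for the common median, 66 for the block and 14 without the 3 replicate 2 arrays). The common median changed the split of higher and lower calls from 1670 and 2446 to 2098 and 1836 in potassium-starved shoots, from 2638 and 1297 to 1524 and 2331 between treated shoots, from 328 and 327 to 252 and 454 between treated roots, and from 699 and 674 to 531 and 781 for the potassium response between tissues. In the fits with 1 array left out, the spread is pooled over groups. Replicate numbers were not taken to pair potassium-starved with the other roots, or roots with shoots, though 7 of 9 arrays correlated best with their own number in the latter. In these comparisons the block added AT5G10920 (potassium-starved against control roots, adjusted p = 0.02) and AT4G24830 (between treated roots, adjusted p = 0.0168) to the limma calls. Where the numbers were taken to pair the samples, the block changed no call of a pathway gene other than those given beside the results.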
